A study of Mus musculus with 2 samples.

Results

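Rab proteins are small GTPases that mark membranes and direct vesicle traffic between them. Each one cycles between a GTP-bound form that recruits effectors, such as tethers and motors, and a GDP-bound form that is pulled off the membrane. In T cells they serve the delivery of antigen receptors, cytokine receptors and inhibitory receptors to the surface, their recycling, and the release of granules. The transcripts of all Rab genes on the array were described here. A member is a gene whose symbol is Rab followed by a number and at most a letter and a further digit, read by a probe set that the platform annotation pairs with that symbol alone. There were 59 such genes among 18193 genes, read by 132 of 45101 probe sets. Where several probe sets read a gene, the one with the highest mean signal stands for it.

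RNA came from regulatory T cells (Treg), the T cells that hold immune responses in check, which were sorted from the spleen and lymph nodes of 6 to 8 week old females. A single array was made from mice labelled Foxp3<Cre/wtS> Stat3<fl/wt> and a single array from mice labelled Foxp3<Cre/wtS> Stat3<fl/fl>, called fl/wt and fl/fl below. Both groups thus carried a Cre recombinase at the Foxp3 locus on 1 X chromosome, and they differed in whether 1 or both alleles of Stat3, a cytokine-activated transcription factor, were flanked by loxP sites. Because Foxp3 is X-linked, Cre acts in only those Treg of such females that use the Cre-bearing X. The sources used here do not say whether the sort selected these cells or how many mice were pooled. The 3 Stat3 probe sets above log2 5 differed by -0.083 to -0.0083, and their position relative to the floxed part of the gene is unknown here, so they do not check the labels. Replicate error could not be estimated from 1 array per genotype, and no difference below has a test. Where a pair of signals follows a gene, the fl/wt array comes first and the fl/fl array second.

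All values are GCRMA signals on the log2 scale. A gene was called measured if it reached log2 5 on at least 1 array, since GCRMA crowds values below that level together and their order carries no information. Of the 12 T cell markers listed, 10 had a probe set and 9 were measured, and of 8 Treg markers with a probe set 7 were measured, with Ctla4 at 14.91 and 14.87. Foxp3 itself was under log2 5 on both arrays, at 4.09 and 3.52. Markers of macrophages and other myeloid cells were also high: 16 of 18 reached log2 5, with mean signals from 8.06 to 14.87, and the signal summed over the list was log2 17.19 on both arrays. Among them Csf1r, the receptor of a macrophage growth factor, read 13.99 and 14.00, and the complement gene C1qa 13.83 on both. Itgam and Clec4f were the members under log2 5. B cell markers were lower, with 5 of 9 measured and a summed signal of 11.10 and 11.02. The part of such cells in the Rab signals was not tested, and more cells of a type cannot be told apart from more RNA per cell.

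Of the 59 Rab genes, 41 were at or above log2 5 on both arrays and 18 were under 5 on both; none crossed the threshold between arrays. This is 69.5% of the Rab genes, where 53.7% of all genes were measured. The 41 measured members had a median mean signal of 10.81, against 10.18 over the 9773 measured genes. Signals fell into 12 genes at or above log2 12, 21 between 9 and 12, and 8 between 5 and 9. Of the genes under 5, 14 were also under 4. Closest above the threshold was Rab39, a Rab of phagosomes and late endosomes, at 5.39 and 5.31. Closest below it was Rab33a, at 4.77 and 4.93.

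Signals of different probe sets are not on a common scale of transcript number, because probes bind with different strength. The spread among probe sets of the same gene gave a measure of this. Over 4227 genes with at least 2 probe sets above log2 5 on both arrays, the pooled SD of the signal within a gene was 1.98. For the difference between 2 probe sets this corresponds to an SD of 2.81. The 41 measured Rab genes spanned 8.74 in signal, and none of the 40 steps between neighbours in their order exceeded 2.81; the widest step was 1.96. The order below is therefore one of array signals, in which neighbours are not resolved.

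**Figure D1:**
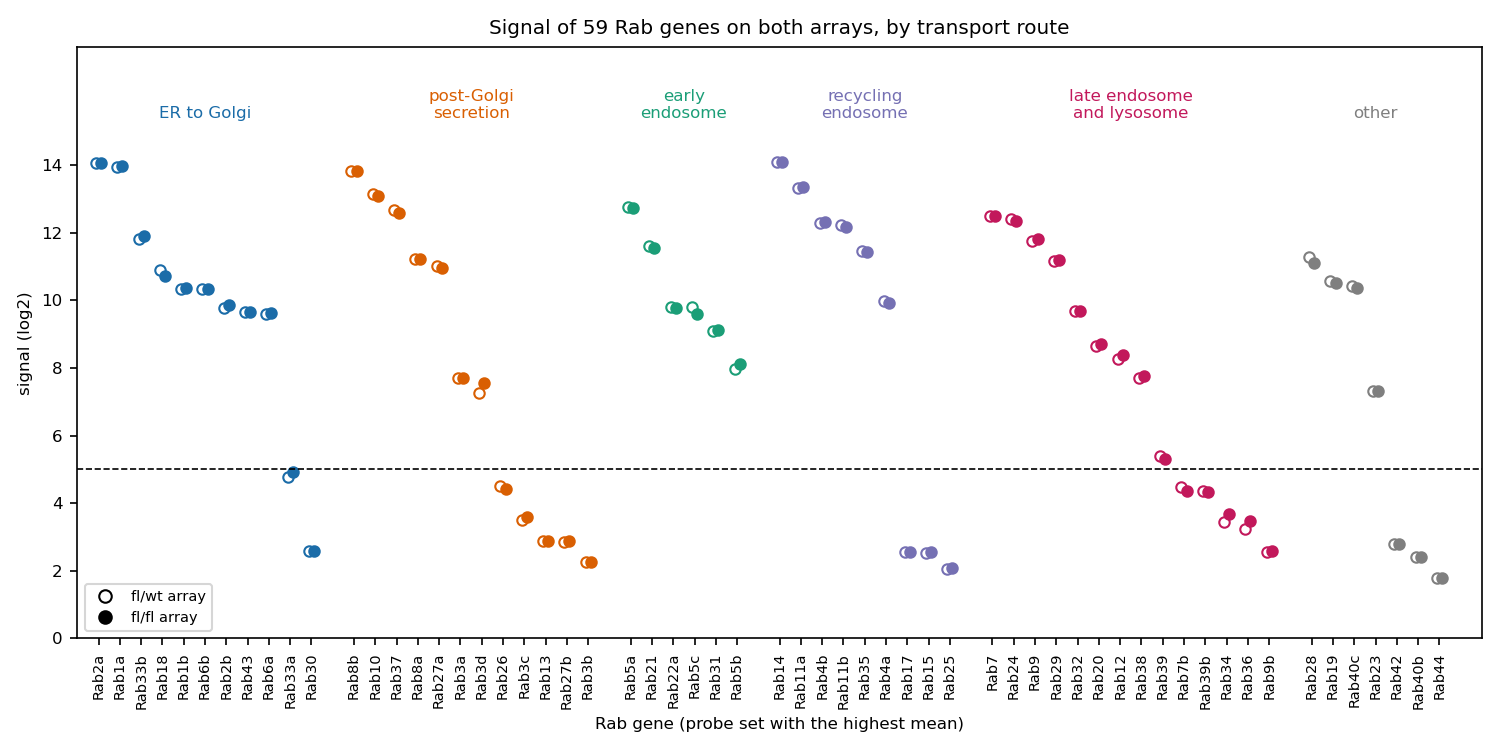
Each pair of points is a Rab gene, with its log2 signal on the fl/wt array (open) and the fl/fl array (filled), ordered by mean signal within a route; the dashed line marks log2 5. Within each pair the points nearly coincide, while genes of every route except early endosomes lie on both sides of the line.

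Rab genes of traffic between the endoplasmic reticulum (ER) and the Golgi were mostly measured, 9 of 11, with a median signal of 10.36. Rab2a, which acts at the ER and Golgi interface, read 14.07 and 14.05. Rab1a, which tethers ER-derived vesicles to the Golgi, read 13.94 and 13.97. Rab33b, a Golgi Rab that also binds the autophagy machinery, read 11.83 and 11.91. These 3 genes gave the highest signals of the group, and the other measured members lay between 9.62 and 10.81. Among those, Rab18, found on the ER and lipid droplets, read 10.90 and 10.71. The Golgi Rab43 read 9.67 and 9.66. Rab33a and the Golgi gene Rab30 (2.58 and 2.60) were the members under log2 5.

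Rab genes of secretion beyond the Golgi divided more evenly, with 7 of 12 measured and a median of 11.23 over these. Rab8b and Rab8a move carriers from the Golgi to the surface; Rab8b read 13.84 on both arrays and Rab8a 11.23 and 11.24. Rab10, which serves exocytosis of transporter-bearing vesicles, read 13.14 and 13.10. Rab37, known from secretory granules of mast cells, read 12.67 and 12.58. All 4 genes lay above log2 11 on both arrays. Rab27a, which docks the lytic granules of cytotoxic T cells, read 11.02 and 10.96. Rab3a, the synaptic vesicle Rab, read 7.70 and 7.71, and Rab3d, a Rab of exocrine granules, 7.26 and 7.57. Both stood well below the other 5 measured members. Rab3b, Rab3c, Rab13, Rab26 and Rab27b were under log2 5 on both arrays, with means from 2.26 to 4.47. Over the ER to Golgi and later secretory routes together, 16 of 23 genes were measured.

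All 6 genes of the early endosome were measured, with a median of 9.74. Rab5a, which drives fusion of early endosomes, read 12.76 and 12.74. Rab21, which carries integrins from the surface, read 11.62 and 11.56. Rab22a read 9.81 and 9.76, and its relative Rab31, which links the trans-Golgi network and endosomes, 9.10 and 9.14. Rab5a thus gave the highest signal of this group and Rab5b the lowest.

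Recycling endosome genes had a median of 12.26 over 6 measured of 9. This was the highest of any route with the brightest probe set per gene. Without shared-suffix probe sets it was not, as later secretion had 11.93 and recycling 10.87. Such suffixes (as in _a_at, _s_at and _x_at) mark probes shared by several transcripts, which can be of the same gene. Rab14, which works between the Golgi and endosomes, read 14.08 and 14.10 by such a shared-suffix probe set, the highest signal of all Rab genes. Its best probe set without that suffix had a mean of 10.87, and Rab2a then led at 14.06; with the median over probe sets Rab5a led at 12.75. Rab11a, the Rab of slow recycling, read 13.34 and 13.37. Rab4b, of the fast route back to the surface, read 12.30 and 12.32, and Rab35, also of fast recycling, 11.45 and 11.44. All measured members lay above log2 9.9. Rab17 and Rab25, known from epithelial cells, and Rab15 were under log2 5, with means from 2.07 to 2.57. With the median over all probe sets of a gene the median of the recycling route was 10.92.

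For the late endosome and lysosome, 9 of 14 genes were measured, with a median of 9.70. Rab7, which directs late endosomes to lysosomes, read 12.51 and 12.50. Rab24, linked to autophagy, read 12.41 and 12.35. Rab9, which returns mannose 6-phosphate receptors to the Golgi, read 11.77 and 11.82. These genes, and Rab29 at 11.15 and 11.20, lay in the upper range of the family. Below them came Rab32 (9.70 on both arrays) and Rab38 (7.71 and 7.76), which both serve lysosome-related organelles such as melanosomes. Rab20, a phagosome Rab of macrophages, read 8.65 and 8.71, and Rab12, which sends the transferrin receptor to lysosomes, 8.28 and 8.37. Rab7b, Rab9b, Rab34, Rab36 and Rab39b were under log2 5 on both arrays. The median of this group moved with the threshold, to 8.68 with log2 4 and to 10.44 with log2 6.

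Of 7 genes outside these routes, 4 were measured. Rab28, a Rab of photoreceptors and cilia, read 11.28 and 11.11. Rab19 read 10.58 and 10.52. Rab40c, which carries a SOCS box and joins a ubiquitin ligase, read 10.41 and 10.38, and Rab23, an antagonist of hedgehog signalling, 7.32 and 7.31. Rab40b, Rab42 and Rab44 were under log2 5.

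**Figure D2:**
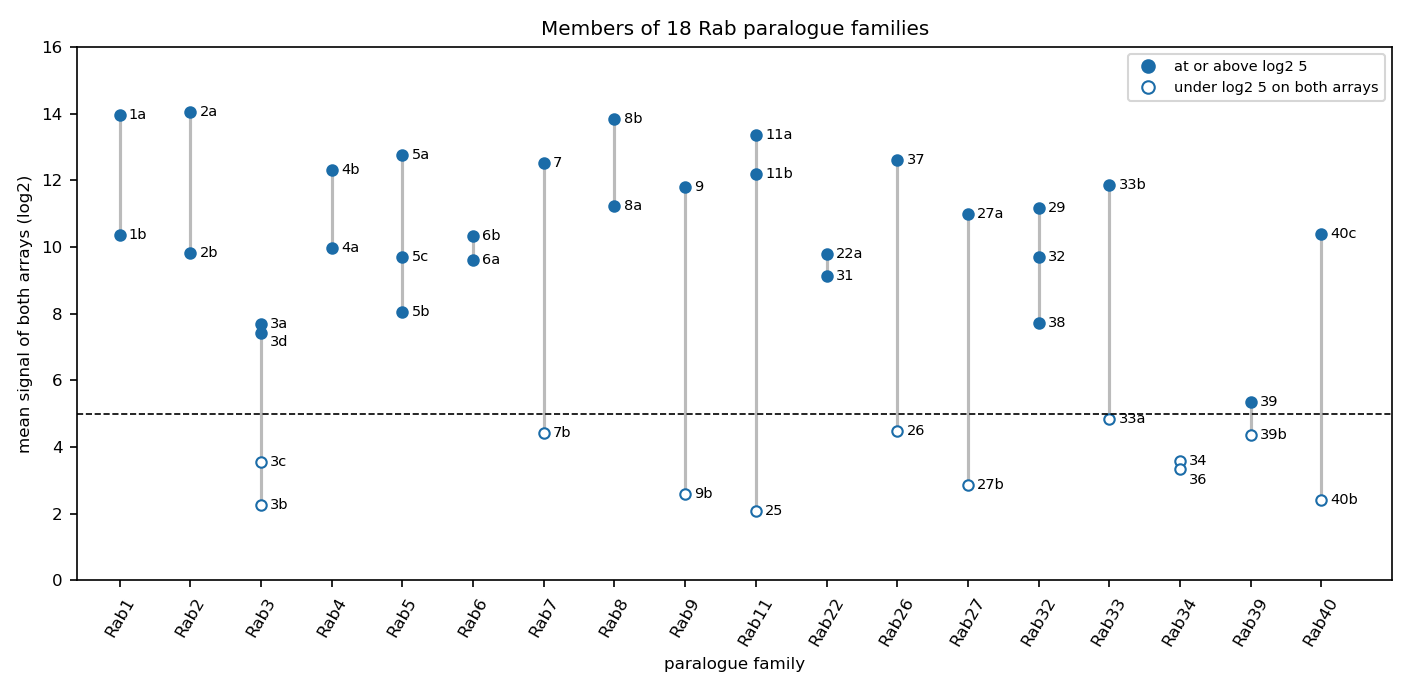
Mean log2 signal over both arrays for the members of 18 paralogue families; filled points reached log2 5 and open points did not, and the dashed line marks log2 5. In 7 families a single member lies above the line, as for 27a over 27b and 9 over 9b.

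Closely related Rab genes were grouped into 18 paralogue families of 41 genes. In 7 families a single member was measured. These were Rab7 without Rab7b, Rab9 without Rab9b, Rab27a without Rab27b, Rab33b without Rab33a, Rab37 without Rab26, Rab39 without Rab39b, and Rab40c without Rab40b. Rab9b, Rab26 and Rab33a were each read by a single probe set. A dim probe set does not show that a transcript is absent, since 15 of the measured Rab genes also had a probe set under log2 5. In 6 of the 7, all but the Rab39 pair, the member under log2 5 also lay more than 2.81 below its partner. The partners in these 6 had means from 10.40 to 12.63, so the threshold alone fixed a gap of that size. The 2.81 was also taken from probe sets above log2 5 only. In 10 families at least 2 members were measured, and in the pair of Rab34 and Rab36, which position lysosomes, none was. The count of families with a single member was 3 with a threshold of log2 4, because Rab7b, Rab26, Rab33a and Rab39b lie between 4 and 5. Without shared-suffix probe sets it was 9, which includes the Rab4 family because Rab4b had no probe set left.

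In 3 of the 10 families the gap between the 2 highest members exceeded the spread (SD of 2.81) between 2 probe sets of a gene. Some pairs of probe sets within a gene also exceed a single SD: their range had a median of 2.53 and a maximum of 10.39. Whether 3 of 10 is more than that share was not tested. Rab1a stood 3.59 above Rab1b, which read 10.35 and 10.37. The gap was 4.24 for Rab2a over Rab2b, at 9.78 and 9.87, and 3.06 for Rab5a over Rab5c. The Rab1 and Rab2 gaps depended on the probe sets: with the median over probe sets Rab1a stood 0.30 above Rab1b, and Rab2b 0.61 above Rab2a, while the Rab5 gap was again 3.06. The gaps of Rab4b over Rab4a (3.04) and Rab22a over Rab31 (3.49) then exceeded the spread, and without shared-suffix probe sets so did that of Rab11b over Rab11a (3.42). In the other 7 families the gap was within that spread. They include Rab4b over Rab4a (2.35), Rab8b over Rab8a (2.61), Rab29 over Rab32 (1.48) and Rab11a over Rab11b (1.15). Rab4a had a mean of 9.96, and Rab11b of 12.20. Smaller gaps separated Rab6b from Rab6a (0.72), Rab22a from Rab31 (0.66) and Rab3a from Rab3d (0.29). Rab6b, known as the form enriched in brain, read 10.33 and 10.35, and the widely expressed Rab6a, which returns Golgi membrane to the ER, 9.61 and 9.63. The leader changed to Rab6a with the median over probe sets, and to Rab11b without shared-suffix probe sets. In the latter setting Rab4b had no probe set left, so Rab4a could not be compared with it.

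A few Rab genes lie close together in the genome. Rab7b and Rab29 lie on chromosome 1 with 3 protein-coding genes between them, and their mean signals were 4.42 and 11.18. Rab43 and Rab7, on chromosome 6 with 6 genes between them, read 9.67 and 12.51. Rab31 and Rab12, on chromosome 17 with 8 genes between them, read 9.12 and 8.33. No other Rab genes had 10 or fewer protein-coding genes between them.

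**Figure D3:**
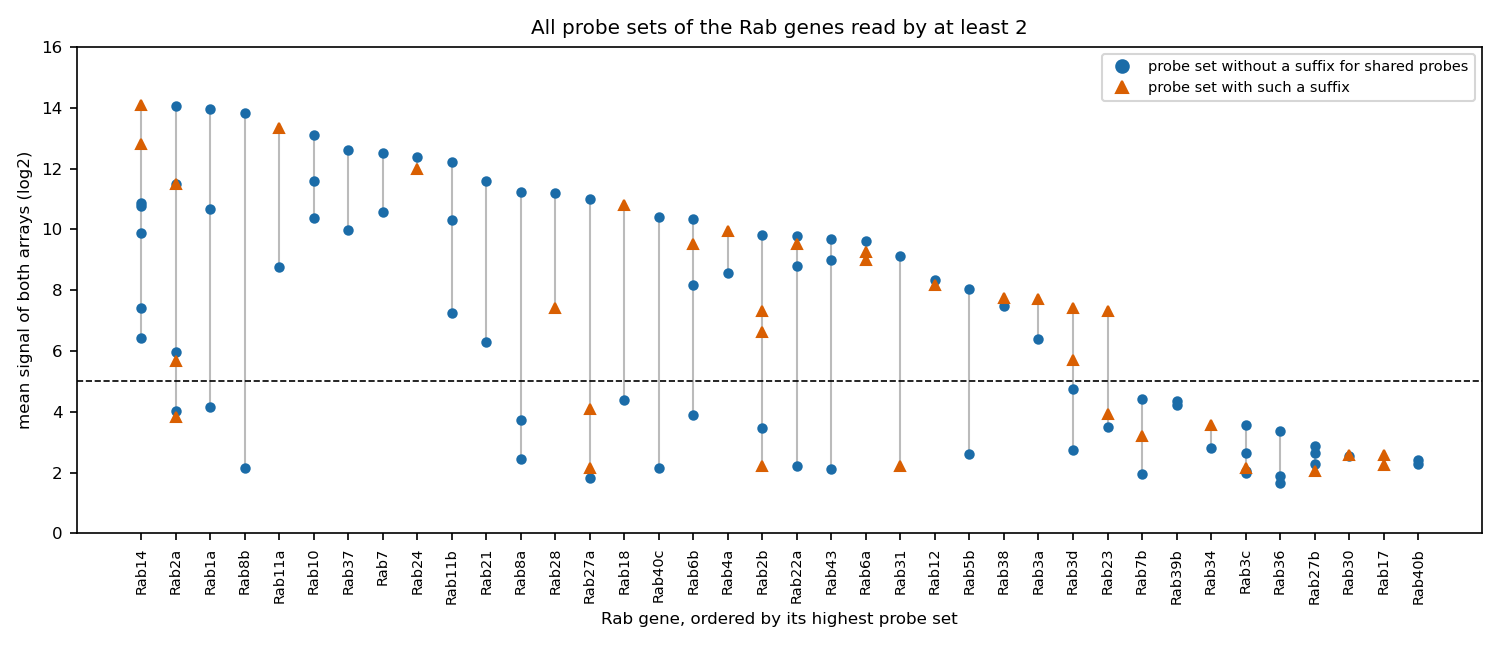
Every probe set of the 38 Rab genes read by at least 2, as its mean log2 signal over both arrays. Triangles are probe sets whose suffix marks probes shared by several transcripts, of the same gene or of others. The dashed line marks log2 5. Probe sets of the same gene spread widely, with Rab8b from 13.84 to 2.14.

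The probe sets of a Rab gene often disagreed in signal. Of the 132 probe sets 76 were at or above log2 5 on both arrays and 56 under 5 on both. At least 1 probe set under log2 5 was found for 15 of the 41 measured genes. Rab8b had the widest range, with means of 13.84 and 2.14. For Rab2a the 7 probe sets ran from 14.06 to 3.82. Rab27a was measured by 1 of its 4 probe sets, with the others at means of 4.09, 2.14 and 1.82. The choice of the highest probe set thus sets both the count of measured genes and their order. With the median over all probe sets 38 genes reached log2 5 on both arrays, and without shared-suffix probe sets 37 of 56 did.

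**Figure D4:**
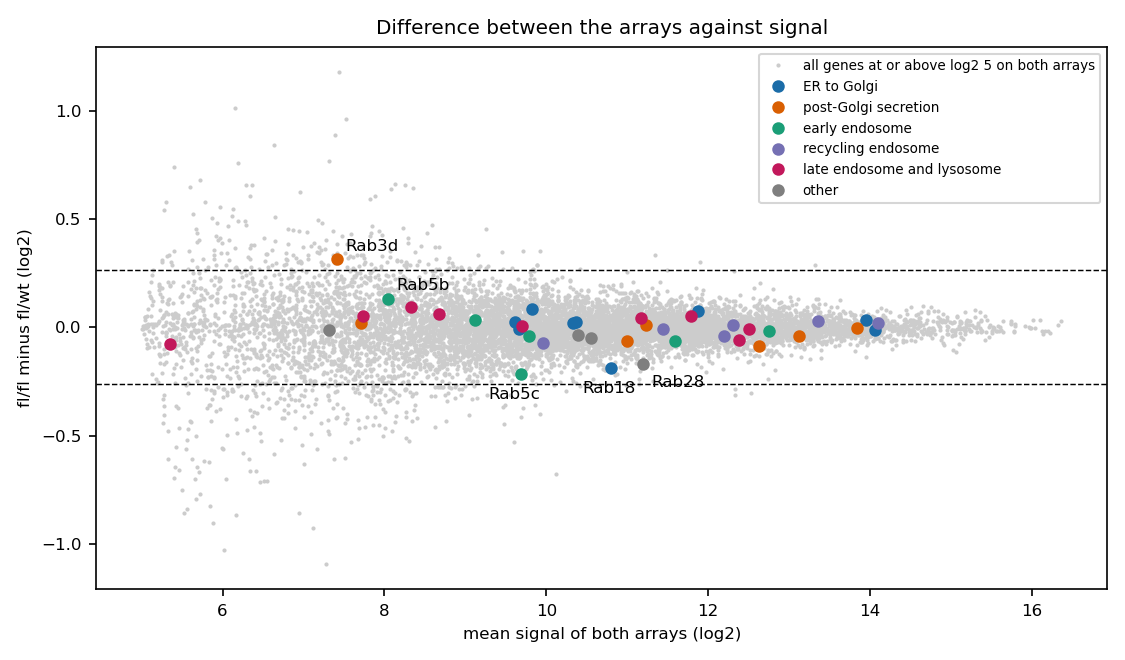
Difference in log2 signal, fl/fl minus fl/wt, against mean signal for all genes at or above log2 5 on both arrays (grey) and the 41 Rab genes, coloured by route; dashed lines mark 1.2-fold. A single Rab gene, Rab3d at 0.31, lies beyond the lines, and the spread of all genes widens towards low signal.

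The comparison of fl/fl with fl/wt asks which transcripts depend on Stat3. Rab signals differed little between the arrays: 20 of the 41 measured genes were higher in fl/fl and 21 lower, with a median difference of -0.0042, against -0.0045 over all measured genes. The split follows the scaling: with each array centred on its median it was 11 higher and 30 lower, and the median of all measured genes was then -0.036. Rab3d was the only member past 1.2-fold, 2.44% of the 41. Of all measured genes, 5.23% were past it and 2.37% were past it on the higher side. Without shared-suffix probe sets there was no such member. With the median over probe sets, taken on each array separately, Rab2a passed instead of Rab3d. Its medians of 6.14 and 5.87 came from different probe sets, which themselves differed by -0.35 and 0.38. The Rab2a value therefore does not compare the same probe set on both arrays. Past 1.5-fold there was no member, against 0.645% of all measured genes. The difference was under 0.1 for 36 members (87.8%) and for 73.2% of all measured genes. The median size of the difference was 0.040 for the Rab genes and 0.053 for all. As the plot of difference against signal shows, the size of differences falls with signal, and the Rab genes lay somewhat above the median signal of all genes. Without replicates these sizes have no error of their own; the pooled SD of differences among probe sets of the same gene was 0.14.

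Higher in fl/fl by most was Rab3d. It read 7.26 and 7.57, a difference of 0.31. Its second probe set above log2 5 read 5.73 and 5.67, so the 2 probe sets differ in direction. With the median over its 4 probe sets the difference was -0.11. That median draws in part on a probe set under log2 5, at 4.83 and 4.68. Rab5b read 7.98 and 8.12, a difference of 0.13. Rab12 (0.096), Rab2b (0.085) and Rab33b (0.076) completed the 5 largest positive differences. All 4 of these lay within the 0.14 spread among probe sets of a gene, and the second measured probe set of Rab12 went the other way, by -0.048. So did that of Rab2b, a shared-suffix probe set at 7.47 and 7.15, by -0.33, which is past 1.2-fold. The third measured probe set of Rab2b differed by 0.068.

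On the lower side, Rab5c read 9.80 and 9.58, a difference of -0.21, from its only probe set. Rab18 differed by -0.19. Its second probe set, under log2 5 on both arrays, read 4.28 and 4.50, and with the median over both the difference was 0.015. Rab28 differed by -0.17, and its second probe set read 7.45 and 7.40, also lower in fl/fl. Rab37 (-0.084) and Rab39 (-0.079) completed the 5. Rab5a differed by -0.015. None of these differences reached 1.2-fold.

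Over the 21 Rab genes with at least 2 probe sets above log2 5 on both arrays, the 2 highest probe sets had the same direction in 10 (47.6%). Over all 4227 such genes the share was 50.4%. Rab2a shows the size of the disagreement among dim probe sets: of its 2 dimmest above log2 5 one read 6.14 and 5.79, and the other 5.49 and 5.87. Its highest probe set differed by -0.012.

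By route the median difference was 0.026 for ER to Golgi, -0.0042 for later secretion, -0.028 for early endosomes, 0.0019 for recycling and 0.043 for the late endosome and lysosome. All 9 measured members of the late endosome and lysosome and all 6 of the recycling route differed by less than 0.1. So did 8 of 9 for ER to Golgi, 6 of 7 for later secretion and 4 of 6 for early endosomes. The share was 87.8% over the measured Rab genes and 73.2% over all measured genes. The route medians are small against the shift of scaling. With centred arrays that of ER to Golgi was -0.0058 and that of recycling -0.030, with all 6 recycling genes lower. The 4 measured genes outside the routes were all lower in fl/fl, with a median of -0.044, where 5129 of all 9773 measured genes were lower. They were also lower with quantile-normalised and loess-adjusted arrays. Centring lowered every gene, with 6698 of 9773 then lower, so it could not change their direction. Their differences ran from -0.17 to -0.013, and only that of Rab28 exceeded the 0.14 spread among probe sets of a gene. Rab27a, which releases cytotoxic granules, differed by -0.062, from its only probe set above log2 5.

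Regulators that load Rab proteins onto membranes or remove them were measured alongside. For comparison, 4644 of all 9773 measured genes were higher in fl/fl and 5129 lower, and 5.23% passed 1.2-fold. All 7 genes of prenylation and extraction with a probe set were measured, and none passed 1.2-fold (median 0.030). Gdi2, which extracts GDP-bound Rab proteins, read 14.52 and 14.49. Rabggtb, a subunit of the enzyme that attaches the lipid anchor, read 12.23 and 12.26, and Chm, which presents Rab proteins to that enzyme, differed by 0.13.

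Exchange factors, which load GTP, had 27 of 31 members measured, 9 higher and 18 lower in fl/fl, with a median of -0.027. Of these 27, 4 were past 1.2-fold (14.8%, against 5.23% of all measured genes), all lower in fl/fl, and 2.85% of all measured genes were past it on that side. The count fell to 2 with the median over probe sets (Dennd1a and Dennd2c, 8.33%, against 5.52% of all measured genes) and to 2 without shared-suffix probe sets (Dennd2c and Ric1, 7.69%, against 5.86%). Dennd2c, of the DENN family that activates Rab proteins, read 6.34 and 5.43, a difference of -0.90. Ric1, a subunit of the exchange complex for Rab6, read 9.87 and 9.33. Dennd1a, an exchange factor for Rab35, read 8.23 and 7.77. Dennd6b, also of the DENN family, read 9.89 and 9.47, and its 2 other probe sets above log2 5 were also lower, by -0.17 and -0.18. Dennd2c and Dennd1a had no other probe set, and the other probe set of Ric1 lay under log2 5. The difference of Ric1 was -0.17 with the median over its probe sets, and that of Dennd2c -0.34 with a floor of log2 6. Rab6a and Rab35, the Rab genes named with these factors, differed by 0.026 and -0.0074.

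GTPase-activating proteins, which switch Rab proteins off, had 28 of 31 members measured, 11 higher and 17 lower, with a median of -0.013. Tbc1d10c, a lymphocyte member of the Tbc family, had the highest signal, 13.84 and 13.80. Tbc1d22a (8.99 and 9.32, a difference of 0.33) was the only member past 1.2-fold, by a shared-suffix probe set. That is 3.57% of the 28, against 5.23% of all measured genes. With the median over the probe sets of Tbc1d22a the difference was 0.22, under 1.2-fold, and its other probe set lay under log2 5. Of 38 effectors with a probe set 29 were measured, 14 higher and 15 lower, with a median of -0.010. A single effector was past 1.2-fold, 3.45% of the 29, against 5.23% of all measured genes. This was Myo5a, a myosin that moves Rab27a- and Rab11-bearing vesicles, at 8.43 and 8.17, a difference of -0.263 that barely reached 1.2-fold. It was under 1.2-fold with the median over probe sets (-0.010), after quantile normalisation (-0.259) and after adding 32 to the linear signals (-0.239). Its other probe sets above log2 5 differed by -0.010 and -0.25. The highest effectors were Mical1 (13.25 and 13.23), Rilpl2 (12.60 and 12.54) and Rabep2, an effector of Rab5 (12.55 and 12.57). The Rab27 effectors Unc13d, Sytl1 and Sytl2 were measured, at means of 10.74, 9.78 and 9.48, and Sytl4, Exph5, Mlph and Myrip were under log2 5.

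Windows around the annotated starts were compared, to ask what measured and unmeasured Rab genes share beyond their signal. RefSeq promoter sequences (GRCm38.p6, 250 bases before to 50 after each start) were found for 48 of the 59 genes. The 36 measured genes had a median of 25.5 CG dinucleotides in 300 bases and the 12 others 9.5. All genes with a promoter showed a like gap, with 21 in 8034 measured genes and 8 in 6418 others, so it is not particular to Rab genes. At least 10 CG were found in 34 of 36 measured Rab genes (94.4%, against 85.8% of all measured genes) and in 6 of 12 unmeasured ones (50%, against 44.9%). Rab14, whose brightest probe set read over log2 14, and Rab25, a member of the Rab11 family under log2 5, show the difference. The pair of Rab9 and Rab9b goes against it. The windows are printed 5′ to 3′ on the minus strand, on which all 4 genes lie, with each CG in capitals.
Rab14, chr2:35201071-35201370, 27 CG: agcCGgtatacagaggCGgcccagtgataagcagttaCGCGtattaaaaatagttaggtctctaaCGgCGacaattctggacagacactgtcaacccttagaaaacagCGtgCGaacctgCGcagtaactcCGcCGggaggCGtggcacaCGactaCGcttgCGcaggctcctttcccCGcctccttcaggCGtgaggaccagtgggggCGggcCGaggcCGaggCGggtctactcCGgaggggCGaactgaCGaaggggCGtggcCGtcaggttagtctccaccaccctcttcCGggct
Rab25, chr3:88548230-88548529, 9 CG: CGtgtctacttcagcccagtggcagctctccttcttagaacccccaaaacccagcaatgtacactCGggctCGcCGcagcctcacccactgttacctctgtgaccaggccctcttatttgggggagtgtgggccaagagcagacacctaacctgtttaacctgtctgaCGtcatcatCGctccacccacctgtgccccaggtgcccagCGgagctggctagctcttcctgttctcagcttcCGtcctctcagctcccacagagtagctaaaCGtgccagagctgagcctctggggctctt
Rab9, chrX:166479818-166480117, 9 CG: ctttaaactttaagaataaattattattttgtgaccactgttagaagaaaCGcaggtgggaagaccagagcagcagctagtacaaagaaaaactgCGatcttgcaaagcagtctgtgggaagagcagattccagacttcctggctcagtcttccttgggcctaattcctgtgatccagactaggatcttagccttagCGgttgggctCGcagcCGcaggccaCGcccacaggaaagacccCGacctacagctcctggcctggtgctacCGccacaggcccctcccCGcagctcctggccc
Rab9b, chrX:136868507-136868806, 17 CG: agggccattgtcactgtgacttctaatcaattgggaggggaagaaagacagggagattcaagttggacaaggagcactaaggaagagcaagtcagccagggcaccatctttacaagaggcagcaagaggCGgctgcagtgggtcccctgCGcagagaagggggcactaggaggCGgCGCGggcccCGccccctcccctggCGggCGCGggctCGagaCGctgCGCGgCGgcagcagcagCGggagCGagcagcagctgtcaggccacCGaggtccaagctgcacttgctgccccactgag

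Rab14 has CG spread over the whole window, and Rab25 has few. Rab9, at a mean signal of 11.79, has as few as Rab25, whereas Rab9b, at 2.58, has 17 that gather near the start. Among measured genes Rab9 and Rab19 had the fewest, 9 each, and Rab10 and Rab35 the most, 43 each.

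**Figure D5:**
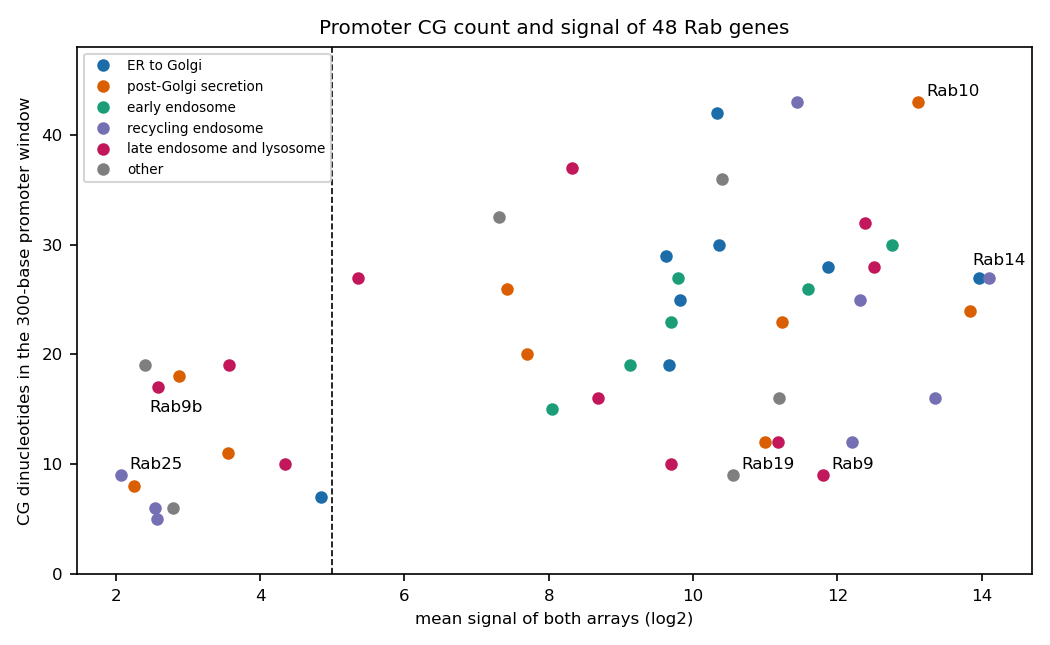
CG dinucleotides in the 300-base window around the start (median where a gene has several) against mean log2 signal for 48 Rab genes, coloured by route; the dashed line marks log2 5. Genes under the threshold have 5 to 19, and measured genes 9 to 43, so the groups overlap.

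Motifs were searched on both strands of the same windows. The letters TTCNNNGAA, the core that Stat factors recognise, which reads alike on both strands, were found in 2 of the 36 measured Rab genes (5.56%) and in 3 of the 12 others (25%). The share was 8.24% of all measured genes, 8.99% of all unmeasured genes and 8.30% of all 32851 promoter windows. The measured genes with a match were Rab11a and Rab19, whose matches are shown in capitals with 10 bases on each side.
Rab11a, within chr9:64737707-64738006, minus strand: tacacttcgcTTCTCTGAAtgattgggga
Rab19, within chr6:39381103-39381402, plus strand: aggaaggatgTTCGATGAAggatgcagag

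Relative to the start, the match begins at base -199 in Rab11a and at base -209 in Rab19. Rab11a differed by 0.029 and Rab19 by -0.051 between the arrays, both well under 1.2-fold. CACGTG, an E-box letter string that also reads alike on both strands, was found in 6 measured Rab genes (16.7%, against 12.3% of all measured genes), namely Rab5a, Rab20, Rab21, Rab23, Rab24 and Rab27a. It was in 7.15% of all windows. TATAAA was found in 1 measured Rab gene, Rab7 (2.78%, against 8.26% of all measured genes), and in 3 of the 12 others (25%, against 15.6% of all unmeasured genes). A match of letters is a description and not a site of binding.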

How the data were processed

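Per the labels' protocols, biotin-labelled cRNA was made from total RNA and read on Affymetrix arrays. The authors deposited log2 signals of 45101 probe sets on 2 arrays, whose medians were 3.47 for fl/wt and 3.50 for fl/fl. The submitters' processing notes name GCRMA, without a version or settings. The log2 scale was read from the values, which run from 0.53 to 16.91. Its background step, based on the sequence of the probes, crowds dim probe sets together without order. The number of arrays limits the precision.

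Only probe sets paired with a single gene symbol were used, and control probe sets were left out. All 59 Rab symbols matched RefSeq (GRCm38.p6) by Entrez identifier. Differences are fl/fl minus fl/wt over genes at or above log2 5 on at least 1 array, with lower values set to 5; folds of 1.2 and 1.5 mark larger differences. The choice of the highest probe set and the calls past 1.5-fold were checked on simulated data with large planted differences. The other steps were not checked in this way. The members, the lists and their routes were chosen with earlier results of these data known. Named were the 4 highest of each route, all members of the paralogue families, the 5 largest differences each way and members within 0.5 of log2 5. For regulators the rule took the 4 highest of a list and those past 1.2-fold; some of these are summarised only, and Chm, Unc13d, Sytl1, Sytl2, the effectors under log2 5 and promoter examples were chosen after their values were seen. Alternatives were other thresholds, other choices of probe set, other scalings and 32 added on the linear scale. Python 3.11.15, numpy 2.4.6 and pandas 2.3.3 were used.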

Additional observations from a re-analysis of the deposited data

How the results depend on the processing

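All 9 alternatives were planned. Leaving out a replicate could not be done with 1 array per genotype. No paired analysis was possible because each group holds a single array. Over the alternatives with a threshold, 37 to 45 Rab genes reached it on both arrays. The median Rab difference ran from -0.036 (arrays centred on their medians, which took the median of all measured genes to -0.036) to 0.0092, with the sign changed in 3 alternatives. Centring also gave -0.058 for exchange factors, -0.044 for GTPase-activating proteins and -0.042 for effectors. With the median over probe sets, route medians were 9.005 (ER to Golgi), 7.99 (later secretion), 10.92 (recycling) and 9.31 (other), and list medians -0.026 for prenylation and extraction and 0.026 for GTPase-activating proteins. The Rab3d difference became -0.11. Rab2a was then the member past 1.2-fold, but its median came from a different probe set on each array. Without shared-suffix probe sets 0 Rab genes passed 1.2-fold, the recycling median was 10.87 and prenylation and extraction had 0.13. With no filter the medians were 7.56 for later secretion, 8.03 for the late endosome and lysosome and 7.31 for other genes. A threshold of log2 4 gave 8.68 for the late endosome and lysosome and 3 families with a single member, and log2 6 gave 10.44. Some of these moves follow from the setting itself. Centring lowered the fl/fl signal against the fl/wt signal of every gene. No filter and a threshold of log2 4 added dim genes, and log2 6 removed them. Beyond that, the cause was not tested. Medians were held to the spread among probe sets divided by the square root of the number of genes; 112 values of the counts and medians stayed within their limits and 19 moved beyond them. For single genes 131 stayed, 7 moved and 1 was reversed. Many of these values could not move. Centring and loess keep the mean signal of each gene, and another threshold leaves the difference of any gene above it unchanged. The totals therefore do not measure how stable the results are.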

Other observations

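Another family of small GTPases of membrane traffic was also measured. Of 27 genes listed for the Arf and Arl family, which recruits vesicle coats, only 16 had a usable probe set. Of these 14 were measured (87.5%, against 53.7% of all genes), with a median of 12.27. Arf6, of the cell surface and endosomes, read 14.72 (fl/wt) and 14.69 (fl/fl), and Arf1, of Golgi coats, 14.52 and 14.49. The median difference of the 14 was -0.027, with 5 genes higher and 9 lower in fl/fl. None was past 1.2-fold, against 5.23% of all measured genes.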
